A study of Mus musculus with 41 samples.

Results

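The core spliceosome genes described here are 50 protein-coding mouse genes whose symbols begin with Snrp, Lsm and a digit, Sf3a, Sf3b, Prpf or U2af. They were picked by symbol alone out of 55385 genes with RNA values, and each of the 50 also has a row among the 22438 genes with ribosome footprints. By role, 8 encode Sm ring proteins, 4 encode U1 or U2 snRNP proteins, 9 encode SF3a or SF3b subunits, 3 encode U2AF subunits, 7 encode the Lsm2 to Lsm8 ring, 6 encode other LSm proteins and 13 encode PRPF proteins. The RNA values list 308 transcripts of these genes, of which 125 are annotated as protein_coding, 101 as retained intron and 36 as targets of nonsense-mediated decay (NMD).

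The spliceosome removes introns from precursor mRNA and is built from small nuclear ribonucleoproteins (snRNPs). The U1, U2, U4 and U5 snRNPs each carry a ring of Sm proteins, and U6 carries the related Lsm2 to Lsm8 ring. U2AF reads the 3′ splice site, SF3a and SF3b hold the U2 snRNP on the branch site, and several PRPF proteins belong to the U4/U6.U5 tri-snRNP, with PRPF8 at the catalytic centre. Many genes for splicing factors also make transcripts in which an extra or missing exon brings an early stop codon, and such transcripts are degraded by NMD, a surveillance pathway that needs UPF2. PELO and HBS1L act on a different problem, since together they release ribosomes that have stalled on mRNA.

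Ribosome profiling, which sequences the mRNA stretches that ribosomes shield from nuclease, was done on 30 libraries, and RNA was sequenced from 11 libraries of mouse embryonic fibroblasts (MEFs). E8.5 embryos of strain C57BL/6NJ were Hbs1l-/- (3 replicates) or Wildtype (3 replicates), each replicate a pool of embryos that were not sexed. P14 cerebella of strain C57BL/6J came from Atoh-Cre;Hbs1l cKO mice and Atoh-Cre;Hbs1l +/+ mice (3 each), in which Cre acts in granule cells and their precursors and not in the other cells of the cerebellum. By the methods of the study these cKO mice were Hbs1l fl/-, so their other cells carried 1 deleted allele, unlike the +/+ controls. The Hbs1l cKO MEFs below were also fl/-. MEFs carried CAG-Cre ER, an inducible Cre, and mutant and control cells alike received tamoxifen. The mutant MEFs were Hbs1l cKO, Pelo cKO or Upf2 cKO, here Hbs1l-/-, Pelo-/- and Upf2-/-, with 3 footprint replicates each beside 3 control libraries from the same sequencing pool. The RNA libraries of MEFs comprised 3 control, 3 Hbs1l-/-, 2 Pelo-/- and 3 Upf2-/- libraries. Cerebella and MEFs, mutant and control, also carried the B6J allele of the tRNA gene n-Tr20. By the methods of the study each MEF replicate came from a separate embryo, as 2 pooled dishes for footprints or 1 dish for RNA, and each cerebellum replicate from 1 animal. Embryos, cerebella and the MEF pools of each genotype were separate batches in the labels.

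Totals lay between 2634480 and 7298812 footprints in embryo libraries, 10919139 and 22591768 in cerebellum libraries and 5782990 and 25607974 in MEF libraries, and between 22713643 and 86425762 estimated counts in RNA libraries. Footprints on Hbs1l were lower in Hbs1l-/- embryos (2.98, 2.77 and 9.07 against 60, 52.5 and 50.6 CPM, counts scaled to library size, in controls), cerebella (14.9, 15.7 and 12.8 against 37.8, 40 and 44.7) and MEFs (2.59, 1.68 and 1.51 against 35.3, 39.5 and 32.6), and footprints on Pelo were lower in Pelo-/- MEFs (2.81, 2.98 and 2 against 34.7, 38.4 and 31.8). Upf2 went the other way. In the MEF libraries labelled Upf2-/-, Upf2 had 115, 113 and 119 CPM of footprints against 54.9, 49.2 and 58.3 in controls (log2 fold change 1.09, adjusted p = 3.12e-06) and 63, 43 and 30 CPM of RNA against 15.7, 21.4 and 16.7 (1.33, adjusted p = 0.00331). Values per gene span the whole coding sequence and do not resolve a deleted part, so these counts do not check the label, and the libraries are called labelled Upf2-/- throughout. The control footprint libraries of the 3 MEF pools that bear the same number differed little more than repeat counts of one library would (chi-square per gene 1.1 to 1.18, against 3.91 to 11.95 for libraries of unlike number). The MEF comparisons therefore share controls, as do the RNA comparisons, and their values are given side by side without a test of overlap.

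The sequences that carry the clearest change among these genes belong to transcripts with an early stop. In the libraries labelled Upf2-/-, 3 annotated NMD transcripts rose most, and the printed stretches show how each reaches its stop. They were read from the Gencode M21 transcripts of GRCm38 and are written 5′ to 3′ on the strand of the gene, with the stop codon in capitals. Snrpb-203, a transcript of the gene for SmB, contains an exon of 124 nt that the coding transcript lacks, exon 3 of 8 at chr2:130176629-130176752 on the minus strand, and the reading frame ends with TAG 58 nt into it, 596 nt before the last exon junction.
Snrpb-203 added exon to its stop, chr2:130176695-130176752: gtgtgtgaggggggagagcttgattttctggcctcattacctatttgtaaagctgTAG
U2af1-208, a transcript of the gene for the small U2AF subunit, contains an added exon of 67 nt, exon 4 of 9 at chr17:31651646-31651712 on the minus strand, with TAA 29 nt into it and 414 nt before the last junction.
U2af1-208 added exon to its stop, chr17:31651684-31651712: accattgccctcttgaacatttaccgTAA
Snrpa1-201, a transcript of the gene for the U2 protein A′, instead leaves out the 80 nt exon 6 of the coding transcript Snrpa1-206, at chr7:66070119-66070198 on the plus strand, and the frame then runs across the new junction into TAA, 164 nt before the last junction.
Snrpa1-206 exon that Snrpa1-201 leaves out: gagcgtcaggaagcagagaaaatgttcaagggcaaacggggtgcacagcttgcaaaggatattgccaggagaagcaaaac
Snrpa1-201, the last 30 nt of its frame, of which 24 lie before the new junction and 6 after it: gactttcagaaagtgaaactcaaatttTAA
The early stop leaves reading frames of 213 nt in Snrpb-203 against 696 nt in the coding transcript, 228 against 720 nt in U2af1-208 and 465 against 768 nt in Snrpa1-201.

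A further sequence bears on how small genes were counted. Snrpg, which encodes SmG, lies at chr6:86371304-86379328 on the plus strand of GRCm38, and its whole frame of 231 nt is printed with the start and stop codons in capitals.
Snrpg reading frame: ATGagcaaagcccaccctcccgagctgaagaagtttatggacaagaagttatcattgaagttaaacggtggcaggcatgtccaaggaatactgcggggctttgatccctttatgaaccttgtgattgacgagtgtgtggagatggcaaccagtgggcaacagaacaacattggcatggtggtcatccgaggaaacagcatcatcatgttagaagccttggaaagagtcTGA
Each of its 204 stretches of 28 nt, about the length of a footprint, also occurs in a transcript of the pseudogene Gm8186, and 6 other genes, Gm8186 among them, share at least 1. Here and below a stretch counts as shared if it or its reverse complement occurs in a Gencode M21 transcript of another gene. Lsm7 and U2af1l4 also had every 28-nt stretch of their coding sequence in another gene. Sharing reached 87.6% in Lsm5, 84.9% in Sf3b4, 84.8% in U2af1, 83.3% in Snrpf and in Lsm6, 80.6% in Snrpe, 75.8% in Snrpd2 and 67.2% in U2af2. It was at least 50% in 16 of the 50 genes and under 20% in 32, of which 17 shared none. Copies in the genome outside annotated transcripts were not searched. How reads that map to several places were handled is not given in the sources used here, so the footprint levels of the genes with much shared sequence are uncertain.

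Among control libraries, footprint density, that is CPM per kb of coding sequence, was highest for Snrpd3 (SmD3) and lowest for U2af1l4, a U2AF relative, in embryos, cerebella and MEFs alike. The last place of U2af1l4 is uncertain, since all its 28-nt stretches are shared and these libraries held 0 to 8 of its footprints. Snrpd3 had 1591 ± 131 (SD, n = 3) in wild-type embryos, 468 ± 47 in control cerebella and 434 ± 12.9 in control MEFs. Libraries were scaled within each tissue and prepared as separate batches, so levels of different tissues are described without a test. Densities were above those of cerebellum for 43 of 50 genes in embryos, with a median ratio of 2.69, and for 22 of 50 in MEFs, with a median ratio of 0.928.

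Embryo densities were below those of cerebellum for 7 genes, namely Snrpn (ratio 0.159), Lsm11 (0.33), Prpf40b (0.478), Prpf18 (0.597), Lsm14b (0.632), Lsm1 (0.789) and Lsm7 (0.807). The ratio of Lsm7 is uncertain, since all its 28-nt stretches are shared and wild-type embryo libraries held 4 to 7 of its footprints. Snrpn, the lowest of the 7 genes and with 53% of its 28-nt stretches in other genes, encodes SmN, a relative of SmB/B′ that is known for its expression in brain. It had 239 ± 21.4 CPM per kb in control cerebella (the fourth highest of the 50 genes), 37.9 ± 4.08 in wild-type embryos and 7.36 ± 0.788 in control MEFs (n = 3 each). Snrpb, which encodes SmB/B′, had 211 ± 8.58 in cerebella, 1101 ± 139 in embryos and 319 ± 47.1 in MEFs. The mean density of Snrpn was thus near that of Snrpb in cerebella and far under it in embryos and MEFs. In RNA of control MEFs, Snrpe (SmE) led with 245 ± 36.6 TPM (values scaled for transcript length and library size; n = 3), next to Snrpb with 216 ± 10.5, a gap within their SDs, and Prpf39, a U1-associated protein, was lowest with 3.29 TPM, while Snrpn had 16.9 TPM.

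**Figure D1:**
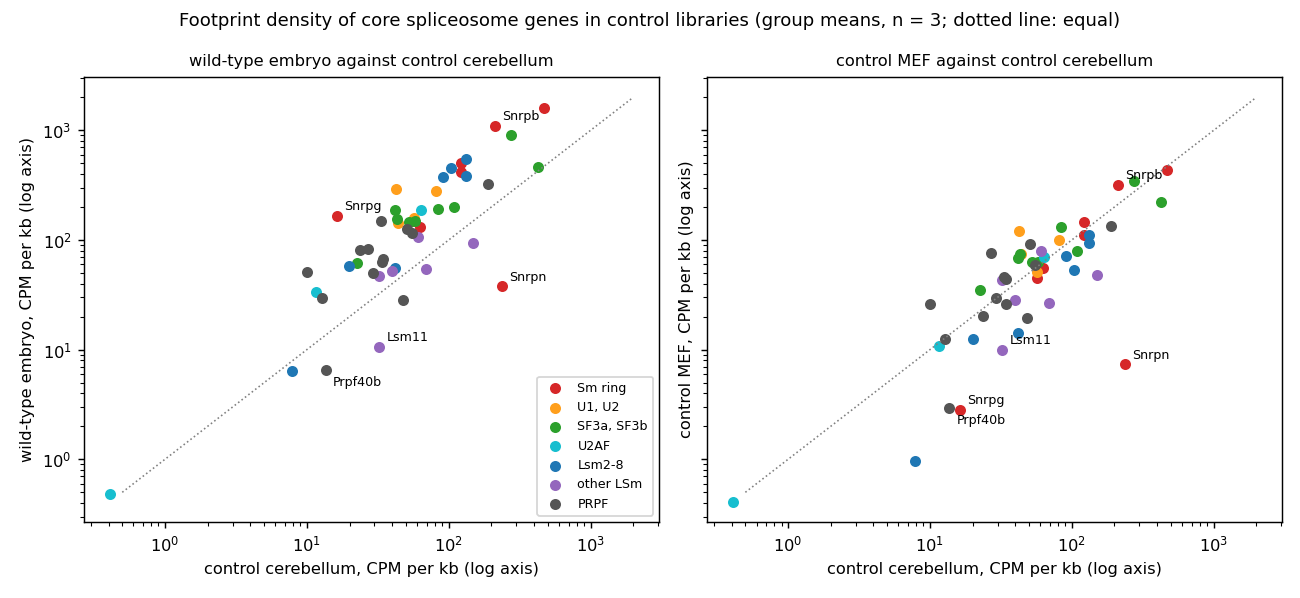
Footprint density in CPM per kb (log axes) of each of the 50 genes, as the mean of 3 control libraries, in wild-type embryos (left) and control MEFs (right) against control cerebella, with colours for the roles and a dotted line of equal density. Most embryo points lie above the line, and Snrpn lies far below it in both panels.

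In E8.5 embryos without Hbs1l, footprints on Snrpg fell and those on the other core spliceosome genes did not pass the test. Snrpg had 4.53, 1.51 and 2.9 CPM in Hbs1l-/- embryos and 56.1, 37.3 and 20.2 CPM in wild-type embryos. Every mutant library lay under every control library, from raw counts of 6 to 32 footprints against 57 to 147, although the controls themselves ranged widely. The log2 fold change was -3.56 (SE 0.42, adjusted p = 0.000779; all adjusted p values come from quasi-likelihood tests in edgeR, corrected after Benjamini and Hochberg over all genes tested), and it kept its call with each library left out. Of the 48 genes tested, U2af1l4 and Lsm7 having too few counts, 0 rose and 1 fell, beside 0.92% of all 11416 tested genes that rose and 0.955% that fell.

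The other Sm proteins form the same ring as SmG, so their values are of interest beside it. All 8 Sm ring genes had a log2 fold change below 0, with a median of -0.68, as did the 6 tested genes of the Lsm2 to Lsm8 ring (median -0.34), whereas 9 of 13 PRPF genes were above 0 (median 0.08). The median of the 48 genes was -0.12 and that of all tested genes 0.01. These differences shrank with a correction for coding length, added after the data were seen, under which the median of the 48 was -0.03 with 21 above 0 (17 without it), the Sm ring had 7 of 8 below 0 (median -0.35) and the Lsm2 to Lsm8 ring 3 of 6 (median -0.05). The correction for coding GC instead gave a median of -0.15 with 14 above 0. In 11 of the 48 every mutant library lay below every control library, as in 12.3% of all tested genes, and in 0 every one lay above, against 11.4% of all. Snrpb had 724, 341 and 308 CPM in mutant embryos against 816, 653 and 822 (-0.73, SE 0.26, adjusted p = 0.152), with the first Hbs1l-/- library close to the controls. Snrpn had 29.2, 22.7 and 22.1 CPM against 30.4, 24.6 and 26.9 (-0.13, adjusted p = 0.779), and the groups overlapped.

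The count of 1 called gene depended on the fit. A replicate block called 6, all lower, beside 324 lower and 240 higher of all 11416 genes. Without the filter on low counts 5 were called, all lower, beside 352 lower and 351 higher of all 16310. The count also depended on the first Hbs1l-/- embryo library. Without it 16 of the genes passed the test, of which 14 had lower and 2 higher footprints in mutants, but calls then rose over the whole table too, to 10.6% of 11376 tested genes lower and 9.65% higher. The 14 were Snrpg (-4.14), Snrpd2 (-1.33), Lsm10 (-1.26), Snrpb (-1.23), U2af2 (-1.19), Snrpf (-1.13), Lsm1 (-1.10), Snrpe (-0.90), Snrpc (-0.82), Lsm4 (-0.75), Sf3a2 (-0.67), Sf3b4 (-0.56), Sf3b5 (-0.50) and Snrpd3 (-0.39). Among the 2 with higher footprints was Prpf4b (0.42). Across the genes tested, the log2 fold change was higher for longer coding sequences (Spearman's rho 0.67 over 48 genes, against 0.15 over all genes), as a description with no test. Markers of other cells moved in the same libraries. Of 6 markers of mesoderm, heart and blood, 4 fell, with summed levels of 3686 to 8938 CPM in mutants against 13545 to 17504 in controls, and 2 of 6 trophoblast markers rose (1410 to 1634 against 840 to 893 CPM). Of 4 endothelium markers 1 rose (466 to 644 against 392 to 405 CPM) and of 8 fibroblast markers 2 fell (2142 to 2756 against 2677 to 3472 CPM). Their part in the result was not tested, and fewer cells of a type cannot be told apart from less RNA per cell in whole embryos. Markers of dividing cells, 0 of 10 called, summed to 4770 to 5905 CPM in mutants and 4903 to 4997 CPM in controls.

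In Atoh-Cre;Hbs1l cKO cerebella, no core spliceosome gene passed the test. Of 49 tested, 0 rose and 0 fell in edgeR, beside 0.0624% of all 14430 genes called in either direction, and 1 had an unadjusted p under 0.05. DESeq2 also called 0 of the 49, beside 476 of all 14951 genes. Snrpg had 4.07, 4.1 and 5 CPM in cKO cerebella and 3.33, 5.38 and 2.41 CPM in controls (0.24, SE 0.31, adjusted p = 0.772), so the groups overlapped. Snrpb had 171, 182 and 161 CPM against 151, 148 and 139 (0.23, adjusted p = 0.421), with every mutant library above every control. The same held for 2 of the 49 genes and 1354 of all 14430. Snrpn had 205, 169 and 187 CPM against 157, 170 and 188 (0.12, adjusted p = 0.729). The median over the 49 genes was 0.02. Granule cell markers were not called (0 of 6; summed 3330 to 4384 CPM against 4080 to 5321), and 10 of 10 markers of dividing cells were above 0 without passing the test (265 to 497 against 155 to 181 CPM). Purkinje cell markers, 0 of 4 called and all below 0 (median -0.92), summed to 4392 to 5904 CPM in mutants against 6091 to 11841, and glia markers, 0 of 5 called, to 8885 to 10652 against 11200 to 12260. The part of these markers was not tested.

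The effect of Hbs1l loss on Snrpg differed between the tissues. The embryo effect minus the cerebellum effect was -3.81 (SE 0.59, adjusted p = 0.0111, interaction over 12 libraries), the one of 49 genes past the threshold, beside 0.732% of all genes. Leaving out the second wild-type embryo library took the adjusted p to 0.0681, and leaving out the first Hbs1l-/- embryo library raised the count to 8 genes, all lower, beside 4.33% of all genes then called lower. Since embryos and cerebella also differ in strain, Cre and batch, these differences cannot be told apart from tissue.

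**Figure D2:**
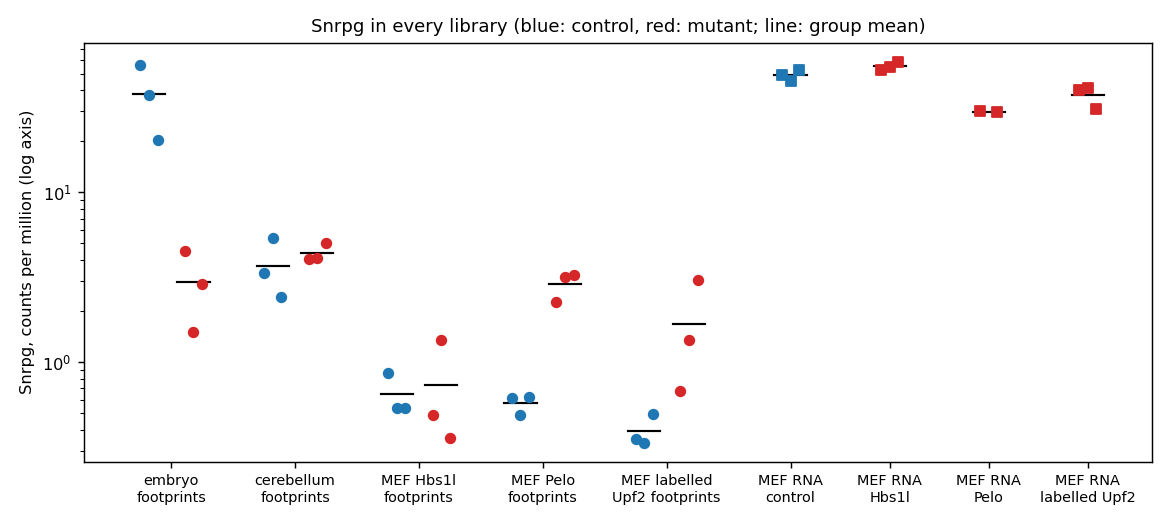
Snrpg in every library in CPM (log axis), with circles for footprints, squares for RNA, blue for control, red for mutant and a line at each group's mean. Footprints in embryos fall from 20.2 to 56.1 CPM in controls to 1.51 to 4.53 CPM in Hbs1l-/-, and in Pelo-/- MEFs they lie above the controls while the RNA lies below.

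In MEFs the picture was broader, since footprints on a good share of the genes rose in each mutant. In Hbs1l-/- MEFs 19 of 47 tested genes rose and 1 fell, beside 17.4% of all 11984 tested genes that rose and 16.7% that fell. In Pelo-/- MEFs 23 of 49 rose and 0 fell (all genes 22.9% and 21.2%), or 22 of 48 without Snrpg, which reached the filter on low counts through the mutant libraries alone, and in the libraries labelled Upf2-/- 22 of 47 rose and 3 fell (all genes 22.3% and 21.1%). The medians over the genes were 0.19, 0.24 and 0.21, against -0.01, 0.00 and 0.00 over all tested genes. The changes were small, mostly under 0.5 on the log2 scale. Snrpg, U2af1l4 and Lsm7 in Hbs1l-/- and labelled Upf2-/- cells, and U2af1l4 in Pelo-/- cells, had too few footprints to test.

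**Figure D3:**
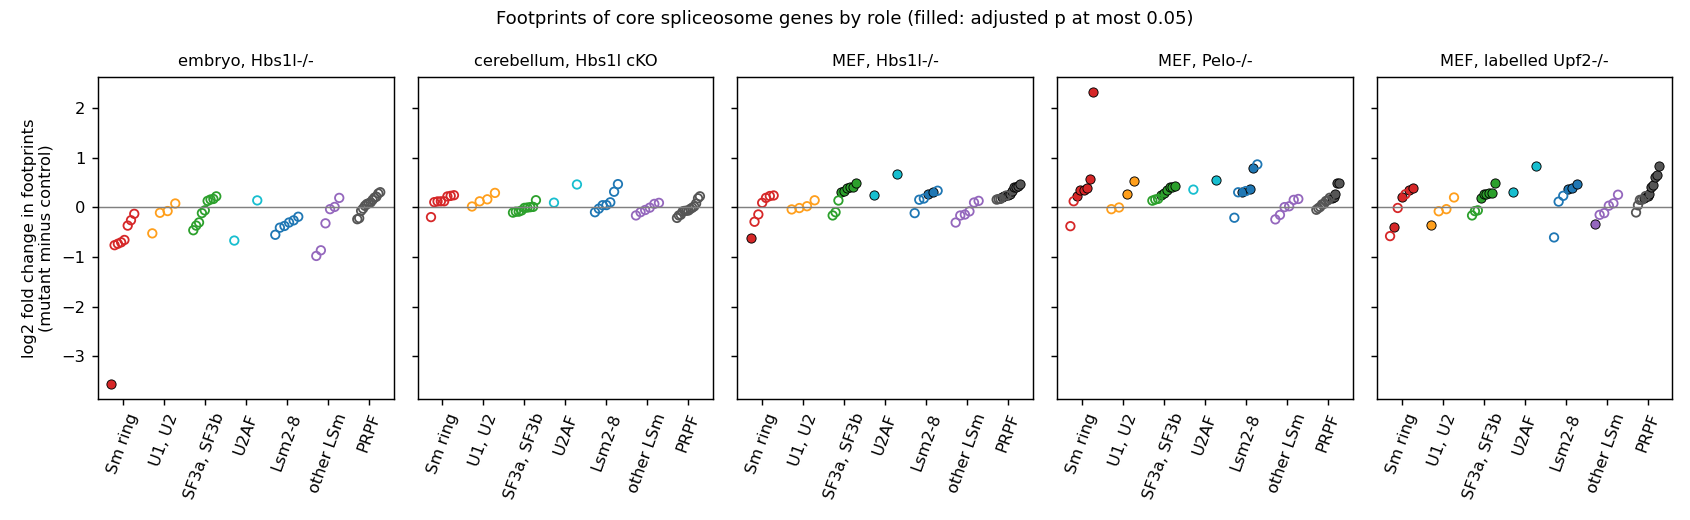
Log2 fold change of footprints (mutant minus control) for each tested gene, one panel for each comparison, grouped and coloured by role and filled where it passed the test. In embryos every Sm ring gene lies below 0, in cerebella the genes lie around 0, and in the 3 MEF mutants most SF3a, SF3b and PRPF genes lie above 0.

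Hbs1l-/- MEFs showed the rise mainly in genes of the SF3 complexes and of the PRPF group. In SF3a and SF3b 6 of 9 rose (median 0.33), among PRPF genes 9 of 13 rose and all 13 were above 0 (median 0.25), both tested U2AF genes rose, and 2 of 6 of the Lsm2 to Lsm8 ring rose. No U1 or U2 protein gene of 4 and no other LSm gene passed. Sf3b3, which encodes a large scaffold subunit of SF3b, had 395, 385 and 372 CPM in mutant cells against 278, 260 and 283 (0.49, SE 0.06, adjusted p = 5.96e-05). U2af1 had 12.2, 12.1 and 12.4 CPM against 7.99, 6.1 and 8.93 (0.68, SE 0.16, adjusted p = 0.00526). For both genes every mutant library lay above every control, which was a condition for naming them here. The same held for 22 of the 47 tested genes and 2809 of all 11984. Prpf38b, a relative of the tri-snRNP factor PRPF38A, had 61, 53.1 and 61.6 CPM against 44.2, 39.6 and 44.4 (0.46, SE 0.09, adjusted p = 0.0012). Sf3a3 had 137, 134 and 137 CPM against 101, 93.3 and 112 (0.41, adjusted p = 0.000937). Prpf40b, a U1-associated protein, had 10.4, 11.6 and 9.16 CPM against 8.16, 7.47 and 7.32 (0.42, adjusted p = 0.0458), and lost its call when 5 of the 6 libraries were left out in turn, in DESeq2 (adjusted p = 0.121) and with the correction for coding length (0.104). Large genes at high levels were among those that rose, such as Prpf8 with 887, 837 and 861 CPM against 649, 666 and 635 (0.41, adjusted p = 0.00014) and Sf3b1, the branch site binding subunit, with 669, 658 and 690 against 511, 501 and 521 (0.40, adjusted p = 0.000162). The others that rose, by 0.21 to 0.40, included Sf3a1, Sf3a2, Sf3b2, U2af2, Lsm2, Lsm4, Prpf3, Prpf4, Prpf6, Prpf19 and Prpf31.

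Snrpn was the gene that fell in Hbs1l-/- MEFs, with 3.36, 3.18 and 3.73 CPM of footprints against 5.3, 5.87 and 4.73 (-0.62, SE 0.21, adjusted p = 0.0336). Its level was low, and its call was lost when any of 4 libraries was left out, in DESeq2 (adjusted p = 0.108), with the replicate block (0.059) and with the correction for coding length (0.0731). Snrpb, its counterpart in most tissues, had 261, 294 and 229 CPM against 224, 252 and 187 (0.24, adjusted p = 0.0938), and those groups overlapped. Of the 20 calls, 13 held with each of the 6 libraries left out in turn, and the count was 13 without the first control library. Longer coding sequences had the higher log2 fold changes (rho 0.55 over 47 genes, 0.23 over all genes), and with the correction for coding length 21 genes rose and 0 fell, among them 4 of 7 Sm ring genes and 4 of 6 of the Lsm2 to Lsm8 ring.

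In Pelo-/- MEFs footprints rose for 5 of 7 Sm ring genes besides Snrpg (median 0.35). Of these only Snrpe and Snrpd3 kept their calls with each library left out in turn. A difference of the ring from Hbs1l-/- MEFs was not tested. Footprints also rose for 6 of 9 SF3a and SF3b genes (median 0.29), 2 of 4 U1 and U2 protein genes, 3 of 7 of the Lsm2 to Lsm8 ring and 5 of 13 PRPF genes. Snrpg had 2.27, 3.16 and 3.27 CPM against 0.616, 0.488 and 0.624, which is 38 to 85 footprints in a library against 6 to 7. Since only the mutant libraries carried it past the filter, its log2 fold change of 2.33 (SE 0.32) is given as a description and no p value is taken from it. Snrpe had 48.5, 42 and 45 CPM against 26.4, 33.3 and 31.6 (0.57, SE 0.10, adjusted p = 0.00136). Lsm5, a subunit of the U6 ring, had 6.22, 7.24 and 5.5 CPM against 3.87, 3.58 and 3.39 (0.80, SE 0.18, adjusted p = 0.00506). These 3 small genes all have most of their coding sequence in common with other genes. U2af2, the large U2AF subunit that binds the polypyrimidine tract, had 143, 142 and 146 CPM against 106, 94.8 and 94.3 (0.54, SE 0.07, adjusted p = 0.000144). Snrpc, a U1 protein, had 38.6, 38.1 and 44 CPM against 29, 29.1 and 25.8 (0.53, SE 0.09, adjusted p = 0.00117). In each of the 5 every mutant library was above every control, which was a condition for naming them here, except for Snrpg. The same held for 26 of the 49 tested genes and 3554 of all 12486. Snrpb, too, rose, with 279, 312 and 258 CPM against 225, 250 and 194 (0.35, adjusted p = 0.0188), while Snrpn had 4.25, 3.34 and 3.19 CPM against 4.05, 5.86 and 4.01 (-0.38, adjusted p = 0.194). The rest of the 23 rose by 0.19 to 0.50, namely Snrpd1, Snrpd3, Snrpf, Snrpa, Sf3a1, Sf3a2, Sf3a3, Sf3b2, Sf3b3, Sf3b4, Lsm4, Lsm8, Prpf4, Prpf8, Prpf19, Prpf31 and Prpf38b. Of the 23 calls, 15 held with each library left out in turn. Both numbers include Snrpg, whose call is not counted as support because of how it passed the filter.

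Footprints in the libraries labelled Upf2-/- rose for 6 of 9 SF3a and SF3b genes, 8 of 13 PRPF genes, both tested U2AF genes, 3 of 6 tested genes of the Lsm2 to Lsm8 ring and 3 of 7 Sm ring genes. Prpf38b had 78.4, 74.8 and 71.3 CPM against 45.1, 37.4 and 43.1 (0.84, SE 0.08, adjusted p = 2.45e-05), and U2af1 had 13, 13.2 and 12 CPM against 7.01, 6.51 and 7.92 (0.84, SE 0.14, adjusted p = 0.000666). Prpf31, a tri-snRNP protein that binds the U4 snRNA, had 109, 106 and 109 CPM against 72.3, 68 and 71.6 (0.61, SE 0.06, adjusted p = 3.21e-05). Prpf40b had 11.3, 13.2 and 12.8 CPM against 7.01, 8.05 and 8.98 (0.64, SE 0.15, adjusted p = 0.00423), and Sf3b3 had 393, 387 and 384 CPM against 277, 269 and 279 (0.50, SE 0.05, adjusted p = 4.11e-05). The groups of these 5 genes did not overlap, with the mutant libraries on the upper side, which was a condition for naming them here. The same held for 26 of the 47 tested genes and 3344 of all 12166. Snrpb had 265, 284 and 318 CPM against 228, 249 and 206 (0.35, adjusted p = 0.00626).

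The 3 that fell there came from different roles. Snrpd2 (SmD2) had 11.8, 16.5 and 13.9 CPM against 19.2, 18.3 and 19.2 (-0.40, adjusted p = 0.0254), Snrpa, the U1 protein A, had 47.2, 60.6 and 49.5 CPM against 70.7, 65.7 and 65.7 (-0.35, adjusted p = 0.0109), and Lsm14b, an LSm protein of the cytoplasm, had 41.5, 47.4 and 45.9 CPM against 57.3, 57.4 and 55.1 (-0.33, adjusted p = 0.00452). For each, every mutant library lay under every control, as for 4 of the 47 tested genes and 3235 of all 12166. Snrpd2 lost its call with the correction for coding length (-0.24, adjusted p = 0.124). Snrpn had 2.88, 2.95 and 4.55 CPM against 5.52, 5.43 and 4.45 (-0.58, adjusted p = 0.0588). Snrpg had 0.677, 1.34 and 3.03 CPM against 0.354, 0.335 and 0.495, on 4 to 22 footprints a library, and was not tested. Of the 25 calls, 17 held with each library left out in turn.

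Markers of cell state and cell type moved in the same footprint libraries. Those of dividing cells moved as follows. In Hbs1l-/- MEFs 9 of 10 rose (summed 2480 to 2746 CPM against 1498 to 1733), in Pelo-/- MEFs 10 of 10 rose (2465 to 2699 against 1515 to 1769) and in the labelled Upf2-/- libraries 9 of 10 rose (2413 to 2681 against 1511 to 1754). Of 4 macrophage markers 3, 4 and 3 rose in the same order, with summed levels of 86.6 to 126 CPM against 42.9 to 59.6 in Hbs1l-/-, 154 to 235 against 45.6 to 59.98 in Pelo-/- and 68.6 to 79.95 against 43.7 to 59.2 in labelled Upf2-/- libraries. Of 8 fibroblast markers 6, 5 and 5 rose and 1, 1 and 2 fell, and their sums overlapped between mutant and control in Hbs1l-/-, Pelo-/- and labelled Upf2-/- libraries. Of 6 trophoblast markers 1 fell in each mutant and 1 also rose in Pelo-/-. Their sums were 15.2 to 28.5 CPM against 36.9 to 53.5 in Hbs1l-/- and 20.6 to 25.5 against 36.4 to 51.6 in Pelo-/-. They were 20.1 to 24 against 39.2 to 54.2 in labelled Upf2-/- libraries. Of 4 endothelium markers 1 fell in Hbs1l-/-, and 1 rose and 1 fell in Pelo-/-. Of 5 glia markers 1, 3 and 2 rose in the same order. The part of these markers in the spliceosome results was not tested. Among the 32 genes with under 20% of shared sequence, 16 rose and 0 fell in Hbs1l-/-, 13 rose and 0 fell in Pelo-/-, and 19 rose and 1 fell in labelled Upf2-/- cells.

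The effect of Pelo loss minus that of Hbs1l loss on footprints was past the threshold for 2 of 49 genes, Snrpe and Snrpg, against 5.55% of all genes. Snrpg is not counted as a test, since it passed the filter through the Pelo-/- libraries, which leaves Snrpe alone. The test took the same-numbered controls of both pools as separate libraries, although they are near repeats of each other, so it counts more controls than are distinct. Comparing the mutants directly, without controls and across their batches, gave 10 genes (8 higher, 2 lower in Pelo-/-; all genes 9.53% and 6.1%), with Snrpe at 0.73 (adjusted p = 0.00284). In the interaction Snrpe differed by 0.72 (SE 0.16, adjusted p = 0.0206). The other of the 2 was Snrpg, with 2.37 (SE 0.62) as a description, since Hbs1l-/- cells had 0.489, 1.34 and 0.356 CPM against 0.868, 0.534 and 0.536 in their controls, too few to test by themselves, and it entered through the high Pelo-/- libraries. The Snrpe call of the interaction was not firm. It was lost in 4 of 12 fits that left out a library, and adding the correction for coding length left 0 calls. The count fell to 0 without Hbs1l-/- replicate 3, without control replicate 1 of the Hbs1l pool or without control replicate 1 of the Pelo pool.

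Gene-level RNA of each mutant was compared with the same 3 controls, and the mutants were not compared with each other at that level. In Hbs1l-/- MEFs 16 of 50 genes rose and 2 fell (all 15318 tested genes 12.7% and 10.4%), and the median was 0.17 against -0.01 over all genes. In Pelo-/- MEFs 5 rose and 18 fell (all genes 15.5% and 16.6%), with a median of -0.15 against -0.01, or -0.01 with the correction for coding length. In libraries labelled Upf2-/- 5 rose and 4 fell (all genes 13.2% and 6.76%), with a median of -0.08 against -0.02. Dividing-cell markers in the RNA went with these medians in sign, with 7 of 10 higher and 0 lower in Hbs1l-/- (summed 1410 to 1468 CPM against 953 to 1087), 0 higher and 5 lower in Pelo-/- (841 to 848) and 0 called in labelled Upf2-/- libraries (761 to 1040). Of 8 fibroblast markers 4 rose and 1 fell in Hbs1l-/- (summed 13390 to 18152 CPM against 11841 to 14868 in controls), 2 rose in Pelo-/- (19815 to 20555) and 1 fell in labelled Upf2-/- libraries (10976 to 12183). Of 4 macrophage markers 2 rose in Hbs1l-/- (34.5 to 56 CPM against 18.5 to 27.4) and 0 were called in the others, and of 6 trophoblast markers 1 fell in Hbs1l-/- (17.8 to 31.3 against 38.4 to 49.8) and 2 rose in Pelo-/- (64.8 to 69.9). The part of these markers in the RNA results was not tested.

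In Hbs1l-/- MEFs the RNA of all 3 U2AF genes rose, together with 4 of 9 SF3a and SF3b genes, 2 of 8 Sm ring genes, 2 of 4 U1 and U2 protein genes, 2 of 7 Lsm2 to Lsm8 genes and 2 of 13 PRPF genes. Lsm2 had 38.1, 36.4 and 38.2 CPM against 23, 23.7 and 20.6 in controls (0.74, SE 0.10, adjusted p = 0.00197), and U2af1 had 138, 127 and 134 CPM against 81.8, 80.4 and 101 (0.60, SE 0.11, adjusted p = 0.00585). Lsm4 had 97.2, 84.1 and 90.4 CPM against 76.1, 58.6 and 58.6 (0.49, adjusted p = 0.0219), Snrpf 53.8, 53.8 and 56.1 CPM against 44.3, 41.5 and 32.9 (0.46, adjusted p = 0.0235) and U2af1l4 21.3, 18.5 and 19.7 CPM against 14, 12.9 and 16.2 (0.45, adjusted p = 0.0291). Those 5 rose without overlap of the groups, which was a condition for naming them here. Among the 50 genes 23 lay wholly above the controls, as did 3585 of all 15318. Snrpb rose as well, with 293, 259 and 301 CPM against 235, 206 and 227 (0.35, adjusted p = 0.0358).

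The RNA of Snrpn fell in Hbs1l-/- MEFs, as its footprints did, with 15, 13.4 and 15.2 CPM against 28.2, 24.1 and 24.7 (-0.83, SE 0.11, adjusted p = 0.00222). Sf3b6, the SF3b subunit that touches the branch site, was the other that fell, with 23, 29.7 and 28.1 CPM against 33.3, 35.5 and 40.9 (-0.44, adjusted p = 0.0331), a call lost with the correction for coding GC (adjusted p = 0.282). Only Lsm2, U2af1 and Snrpn kept their calls with each library left out in turn. The count of 18 fell to 6, 10 and 6 without Hbs1l-/- replicate 1, 2 or 3 and to 8, 3 and 11 without control replicate 1, 2 or 3.

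Pelo-/- MEFs had less RNA of 5 of 8 Sm ring genes (median -0.60), 4 of 7 Lsm2 to Lsm8 genes (median -0.45), 2 of 4 U1 and U2 protein genes, 2 of 9 SF3a and SF3b genes and 5 of 13 PRPF genes. Snrpb2, which encodes the U2 protein B″, had 13.4 and 13 CPM against 33.5, 33.7 and 38.1 (-1.40, SE 0.11, adjusted p = 0.000718). Snrpe had 24.6 and 26.6 CPM against 51.7, 56.6 and 60.3 (-1.12, SE 0.10, adjusted p = 0.000921). Lsm5 had 8.4 and 8.74 CPM against 17.5, 16.9 and 21.6 (-1.11, SE 0.14, adjusted p = 0.00231). Prpf4b, a kinase associated with the tri-snRNP, had 18.3 and 13.7 CPM against 32.2, 40.1 and 34.3 (-1.14, adjusted p = 0.00344). Snrpg RNA stood at 30 and 29.7 CPM against 48.9, 45.5 and 52.3 (-0.70, SE 0.09, adjusted p = 0.00256). Both mutant libraries lay under all controls for each of these 5 genes, which was a condition for naming them here, except for Snrpg. The same held for 24 of the 50 genes and 4674 of all 14705. Each of the 5 kept its call with any control library left out. Snrpb, with 209 and 200 CPM against 235, 206 and 227 (-0.11, adjusted p = 0.351), and Snrpn, with 19.7 and 22.8 against 28.2, 24.1 and 24.7 (-0.26, adjusted p = 0.131), did not pass.

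The 5 with more RNA in Pelo-/- MEFs included 3 of the 6 other LSm genes. Prpf8 had 461 and 465 CPM against 249, 362 and 333 (0.57, adjusted p = 0.0312), Lsm11, a subunit of the U7 snRNP that acts on histone mRNA, had 23.6 and 26.7 CPM against 18.6, 18.6 and 17 (0.49, adjusted p = 0.0145), and Lsm14b had 43.6 and 47.2 CPM against 32.7, 31.7 and 35.2 (0.46, adjusted p = 0.00976). Prpf40b had 13.5 and 15 CPM against 10.8, 11.4 and 11.2 (0.37, adjusted p = 0.0367), and Lsm12 had 74.4 and 81.3 CPM against 60.7, 67.3 and 65.5 (0.28, adjusted p = 0.0455). With the replicate block Lsm11 (adjusted p = 0.0746), Prpf40b (0.139) and Lsm12 (0.105) did not pass. Prpf8 lost its call without control replicate 3, and Prpf40b and Lsm12 lost theirs without control replicate 1 or 3. For these calls only fits without a control are given, since leaving out a Pelo-/- library leaves a lone one in its group. How far the single calls rest on either Pelo-/- library is therefore not shown. The count of 23 was 12 without either Pelo-/- library. Genes with a lower GC content of the coding sequence had the lower fold changes (rho 0.59 over 50 genes, 0.42 over all genes), while the correction for coding length took the median of the Sm ring to -0.23 (4 of 8 fell) and that of the Lsm2 to Lsm8 ring to -0.09 (1 of 7 fell). A correction that removes whatever tracks coding GC, added after the data were seen, left 14 calls. Under it Prpf4b (-0.45, adjusted p = 0.0232) and Snrpg (-0.54, adjusted p = 0.00885) still passed, while Snrpb2 (-0.42, adjusted p = 0.0577), Snrpe (-0.26, adjusted p = 0.17) and Lsm5 (-0.11, adjusted p = 0.698) did not, and Prpf39 and Sf3b6 turned from -0.97 to 0.30 and from -0.54 to 0.25.

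RNA of the libraries labelled Upf2-/- rose for Prpf40b, with 21.7, 23.1 and 23.7 CPM against 10.8, 11.4 and 11.2 (1.03, SE 0.12, adjusted p = 0.000261), for Prpf38b, with 50.5, 43.1 and 32.7 CPM against 21.9, 24.5 and 22.4 (0.86, SE 0.16, adjusted p = 0.00385), and for U2af1, with 140, 133 and 125 CPM against 81.8, 80.4 and 101 (0.58, SE 0.12, adjusted p = 0.00638). These 3 kept their calls with each library left out in turn. U2af1l4 (19.9, 21.8 and 23.7 CPM against 14, 12.9 and 16.2; 0.58, adjusted p = 0.0153) and Prpf39 (15.9, 14.8 and 9.39 against 8.52, 9.37 and 7.29; 0.66, adjusted p = 0.04) also rose. Snrpb2, with 28.5, 24.4 and 16.3 CPM against 33.5, 33.7 and 38.1 (-0.62, adjusted p = 0.0374), Sf3b1, with 143, 140 and 95.7 against 156, 194 and 179 (-0.50, adjusted p = 0.0447), Sf3b6 (-0.46, adjusted p = 0.0367) and Snrpe (-0.45, adjusted p = 0.0408) fell. The calls of Sf3b6 and Snrpe were lost with the correction for coding GC (adjusted p = 0.212 and 0.132) and for coding length (0.066 and 0.112). Snrpb (225, 261 and 279 CPM; 0.18, adjusted p = 0.278), Snrpn (25.2, 19.2 and 22.2 CPM; -0.22, adjusted p = 0.295) and Snrpg (39.9, 40.9 and 30.9 CPM; -0.41, adjusted p = 0.0522) did not pass. The count of 9 was 4 and 5 without replicate 2 or 3 of the labelled Upf2-/- libraries, and 3 and 4 without control replicate 2 or 3. When only protein_coding transcripts were summed, Prpf40b still rose (0.86, adjusted p = 0.0013), Prpf38b (0.54, adjusted p = 0.0831), Prpf39 (0.39, adjusted p = 0.322) and U2af1l4 (0.35, adjusted p = 0.106) did not pass, and U2af1 turned to -0.32 (adjusted p = 0.0981).

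**Figure D4:**
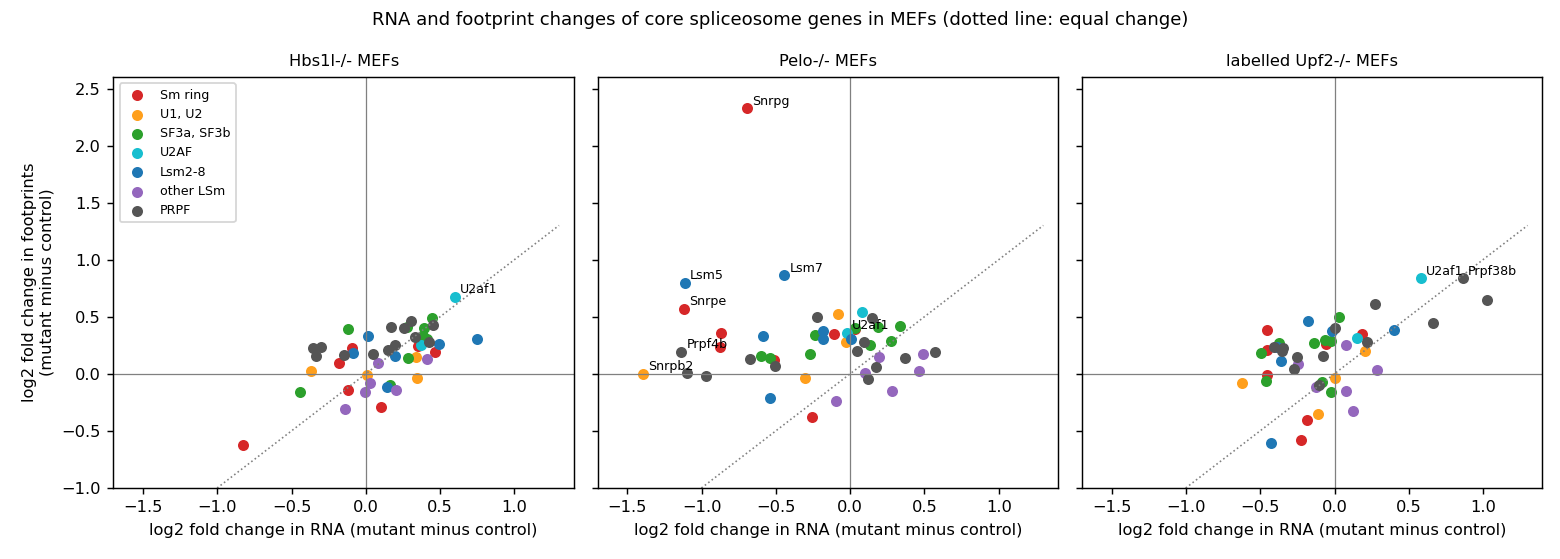
Log2 fold change of footprints against that of RNA (mutant minus control) for the genes tested in both, one panel per MEF mutant, with colours for roles and a dotted line of equal change. In Pelo-/- MEFs the Sm ring and Lsm2 to Lsm8 genes with lower RNA, such as Snrpe and Lsm5, lie far above the line.

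Translation efficiency (TE), the change of footprints over that of RNA, was tested by an interaction term between genotype and assay. In Hbs1l-/- MEFs 0 of 47 genes passed, with 10 at an unadjusted p under 0.05 and 2 calls in DESeq2, beside 0.0336% of all 11907 genes called. In Pelo-/- MEFs TE rose for 26 of 49 genes and fell for 2 (all 12143 genes 24.3% and 20.4%), with a median of 0.41 against 0.04 over all genes, or 25 and 2 of 48 without Snrpg. In libraries labelled Upf2-/- TE rose for 10 of 47 and fell for 1 (all genes 8.47% and 11.8%), with a median of 0.29 against -0.03. The TE of dividing-cell markers rose for 0, 10 and 10 of 10 in these mutants, in the same order, and its part was not tested.

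Among genes with footprints enough in both groups, TE in Pelo-/- MEFs rose most for ring genes, a U2 protein gene and a PRPF gene. It rose for Lsm5 by 1.93 (SE 0.21, adjusted p = 1.82e-05), Snrpe by 1.71 (SE 0.15, adjusted p = 3.4e-06), Snrpb2 by 1.42 (SE 0.13, adjusted p = 3.62e-06) and Prpf4b by 1.35 (SE 0.17, adjusted p = 4.81e-05). Snrpg had a value of 3.06 (SE 0.26), again as a description because its controls held 6 to 7 footprints a library. For Lsm5 and Snrpe the footprints were higher and the RNA lower. For Snrpb2 and Prpf4b only the RNA had passed its own test. The ring genes as groups gave 5 of 7 higher among Sm genes besides Snrpg (median 0.66) and 5 of 7 among Lsm2 to Lsm8 genes (median 0.58), with 7 of 13 PRPF genes and 5 of 9 SF3a and SF3b genes. The 2 that fell were Lsm14b (-0.42, adjusted p = 0.00792) and Lsm12 (-0.41, adjusted p = 0.0281), LSm proteins outside the spliceosome whose RNA had risen. The call of Lsm12 was lost without the first Pelo-/- footprint library, the first footprint control or the first RNA control. Among genes whose TE rose, Prpf4, Lsm4, Sf3a2 and Lsm7 lost their calls without some footprint or RNA control library. Fits without a Pelo-/- RNA library are left out here, since they leave a lone one in its group. How far single TE calls rest on either of those libraries is therefore not shown. The rise was larger for genes of low coding GC (rho -0.51 over 49 genes, -0.29 over all). The correction for coding length left 2 of 7 Lsm2 to Lsm8 genes higher (median 0.27). With the GC correction 26 rose and 2 fell, and the values became 0.92 for Lsm5, 0.86 for Snrpe, 0.45 for Snrpb2 and 0.69 for Prpf4b, each still past the threshold.

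In the labelled Upf2-/- libraries the TE of Snrpd1 (SmD1) rose most, by 0.82 (SE 0.20, adjusted p = 0.00898), followed by Sf3b1 (0.66), Snrpd3 (0.65), Prpf4b (0.63), Sf3a3 (0.63), Lsm3 (0.62), Prpf18 (0.56), Prpf8 (0.53), Sf3b3 (0.45) and Sf3b2 (0.39), and that of Lsm14b fell (-0.47, adjusted p = 0.0297). Only Snrpd1, Sf3b1 and Sf3a3 kept their calls with each library left out in turn. The count of 11 was 6 and 5 without the first and second labelled Upf2-/- footprint library, 5 and 4 without the first and second footprint control, and 5 without either the second or the third RNA control.

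At the level of transcripts the libraries labelled Upf2-/- stood apart. Of 22 NMD transcripts of these genes that were tested, 5 rose and 0 fell, with a median log2 fold change of 1.48, and of 47 retained-intron transcripts 3 rose and 0 fell, while of 95 coding transcripts 0 rose and 1 fell. Among all 40620 tested transcripts 4.37% rose, among the 2945 NMD transcripts of all genes 14.7% rose and 0.102% fell (median 0.88), among the 5696 retained-intron transcripts 4.86% rose and 0.14% fell, and among the 26599 coding transcripts 2.99% rose and 1.41% fell. The transcript values are kallisto's estimates, which split reads between transcripts that share most of their exons.

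Snrpb-203, whose added exon is printed above, had 32.9, 30.3 and 34.4 TPM in the labelled Upf2-/- libraries and 0.727, 2.17 and 1.71 TPM in controls (4.38, SE 0.34, adjusted p = 0.00239). U2af1-208 had 96, 80.8 and 73.6 TPM against 3.36, 4.91 and 5.07 (4.20, SE 0.16, adjusted p = 0.00034). Snrpa1-201 had 56, 55.5 and 44.1 TPM against 2.07, 3.46 and 3.41 (4.07, SE 0.18, adjusted p = 0.00041). For each of the 3 the lowest mutant library exceeded the highest control many times over, and each kept its call with any library left out, although with the replicate block Snrpb-203 stood at 4.45 (adjusted p = 0.0532).

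Smaller rises were seen for Prpf38b-204, with 1.27, 1.82 and 1.63 TPM against 0.28, 0.435 and 0.245 (2.25, adjusted p = 0.0153), and Snrpe-206, with 10.8, 9.6 and 8.2 TPM against 4.04, 4.08 and 4.42 (1.14, adjusted p = 0.0356). Prpf38b-204 contains an added exon of 53 nt, exon 2 of 7 at chr3:108910343-108910395 on the minus strand, with TGA and a frame of 285 nt against 1629 nt. The retained-intron transcripts were Lsm7-206 (2.46, 1.83 and 1.67 TPM against 0.204, 0.324 and 0.545), Prpf40b-209 (1.59, 1.12 and 1.23 against 0.202, 0.422 and 0.462) and U2af2-206 (1.69, 2.68 and 2.57 against 0.564, 0.828 and 0.679), with log2 fold changes of 2.35, 1.83 and 1.72 (adjusted p = 0.0367, 0.0358 and 0.021). None of these 5 calls was firm. With each of the 6 libraries left out in turn, Snrpe-206 and Prpf40b-209 kept their calls in 0 of 6 fits, U2af2-206 and Lsm7-206 in 1 and Prpf38b-204 in 3. The count of 8 was 5, 3 and 3 without replicate 1, 2 or 3 of the labelled Upf2-/- libraries and 3 and 5 without control replicate 1 or 2.

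None of the coding transcripts tested rose there. Snrpb-201 had 185, 234 and 208 TPM in labelled Upf2-/- libraries against 207, 208 and 225, and U2af1-201 had 58, 70 and 51.4 TPM against 68.9, 78.1 and 91.8. Snrpa1-206, the coding transcript that keeps the printed exon, fell from 68.3, 66.7 and 73.2 TPM to 52.2, 48.6 and 35.4 (-0.67, SE 0.13, adjusted p = 0.0414). As a share of all TPM of its gene, NMD transcripts made up 52.8% ± 1.71 (SD, n = 3) of Snrpa1 in the labelled Upf2-/- libraries against 4.06% ± 1.01 in controls, and 46.3% ± 3.91 against 4.58% ± 0.457 of U2af1. The share was 13.6% ± 1.89 against 0.71% ± 0.342 for Snrpb and 12.9% ± 0.102 against 4.45% ± 1.02 for U2af2. Of 19 genes with an annotated NMD transcript, 10 had every labelled Upf2-/- library above every control in this share, against 28.2% of the 3826 genes with such a transcript among all genes tested. Mean shares were lower than in controls for some genes, such as Lsm1 (28.6% against 35.4%), Prpf4b (67.5% against 72.8%) and Lsm14a (21% against 25%). Over the 50 genes together the share was 7.73% to 8.5% in labelled Upf2-/- libraries, 1.75% to 1.87% in controls, 1.38% to 1.63% in Hbs1l-/- and 1.94% to 2.08% in Pelo-/- libraries, while over all genes it was 2.28% to 2.48% against 1.78% to 2.06%. The share over the 50 genes sums TPM, so Snrpb-203, U2af1-208 and Snrpa1-201, at 30.3 to 96 TPM in labelled Upf2-/- libraries, weigh most in it. It does not describe the typical gene of the set. The share of retained-intron transcripts was 3.19% to 3.83% against 2.84% to 3.39%, with overlap.

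**Figure D5:**
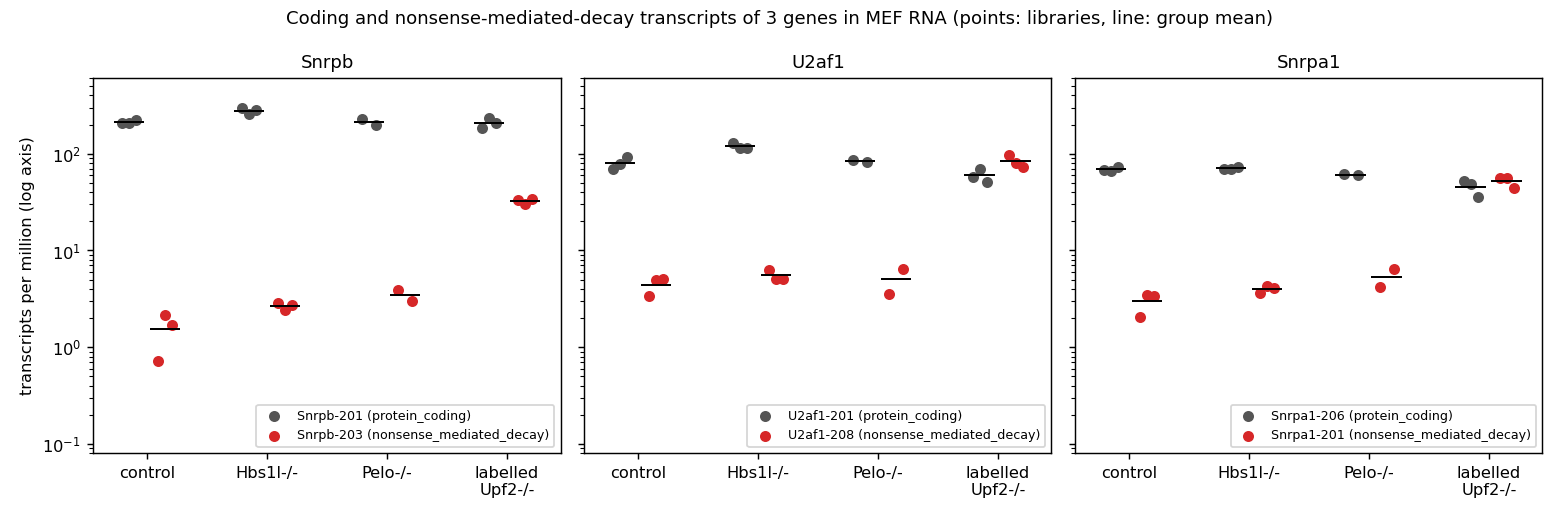
TPM (log axis) of the NMD transcript and of a coding transcript of Snrpb, U2af1 and Snrpa1 in each RNA library, by genotype. In the libraries labelled Upf2-/- the NMD transcripts stand at 30.3 to 96 TPM, above 0.727 to 5.07 TPM in controls, and the other mutants lie at 2.4 to 6.47 TPM, far below the labelled Upf2-/- libraries.

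In Hbs1l-/- and Pelo-/- MEFs these transcripts stayed far under their level in the labelled Upf2-/- libraries and did not pass the test against controls. Snrpb-203 had 2.9, 2.4 and 2.77 TPM in Hbs1l-/- and 3.94 and 3.02 TPM in Pelo-/- cells, U2af1-208 had 6.36, 5.11 and 5.1 and then 3.58 and 6.47 TPM, and Snrpa1-201 had 3.64, 4.26 and 4.09 and then 4.19 and 6.43 TPM. Every Hbs1l-/- library lay above every control for all 3 (log2 fold changes of 0.80, 0.30 and 0.41, adjusted p = 0.33, 0.501 and 0.452), for U2af1-208 by only 5.1 against 5.07 TPM. So did both Pelo-/- libraries for Snrpb-203 (1.07, adjusted p = 0.278) and Snrpa1-201 (0.67, adjusted p = 0.357). Such separation was common in gene-level RNA, with 3585 of all 15318 genes above in Hbs1l-/- and 4416 of all 14705 in Pelo-/- cells. Of the NMD and retained-intron transcripts, 0 of 56 passed the test in Hbs1l-/- cells (4 at an unadjusted p under 0.05, 0 in DESeq2, 1.31% of all transcripts called) and 0 of 46 in Pelo-/- cells (3 at an unadjusted p under 0.05, 3 in DESeq2, 2.37% of all transcripts called). In a direct contrast with the Hbs1l-/- libraries, the libraries labelled Upf2-/- were higher by 3.60 for Snrpb-203 (adjusted p = 0.00031), 3.90 for U2af1-208 (adjusted p = 0.000134) and 3.66 for Snrpa1-201 (adjusted p = 0.000144). Against the Pelo-/- libraries the differences were 3.31 (adjusted p = 0.00508), 4.15 (adjusted p = 0.00701) and 3.39 (adjusted p = 0.00668). Of the 8 transcripts that rose, the other 5 also passed against Hbs1l-/- libraries, but against Pelo-/- libraries only Snrpe-206 of them did (adjusted p = 0.034), while Prpf38b-204 (0.254), U2af2-206 (0.076), Lsm7-206 (0.0681) and Prpf40b-209 (0.0665) did not, nor did the lower Snrpa1-206 (0.207). Of the coding transcripts 0 rose and 7 of 93 fell in Pelo-/- cells, beside 2.37% of all transcripts called in either direction. In Hbs1l-/- cells 1 rose and 1 fell of 94, beside 1.31%. The 7 included Snrpb2-201 (-1.45), Snrpe-204 (-1.18) and Lsm5-201 (-1.15).

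Other genes of the pathway, from lists of the same processes, were counted beside them. Among 63 other spliceosome proteins, such as SNRNP200 and EFTUD2, footprints rose for 23 and fell for 1 of 60 tested in Hbs1l-/-, 19 and 1 of 61 in Pelo-/-, and 29 and 2 of 60 in labelled Upf2-/- cells, where 17.4%, 22.9% and 22.3% of all genes rose and 16.7%, 21.2% and 21.1% fell. Their RNA rose for 9 and fell for 2 of 63 in Hbs1l-/- (all genes 12.7% and 10.4%), 4 and 20 in Pelo-/- (15.5% and 16.6%) and 8 and 4 in labelled Upf2-/- cells (13.2% and 6.76%), and their TE in Pelo-/- cells rose for 26 and fell for 2 of 61 (24.3% and 20.4%). Of 14 genes that assemble Sm rings on snRNA, such as Smn1 and the Gemin genes, footprints rose for 5, 6 and 4 in the 3 mutants in the same order, and fell for 1, 0 and 2, beside the same shares of all genes. In embryos 0 of 60 and in cerebella 0 of 61 of the other spliceosome genes were called, where 0.92% and 0.955% of all genes rose and fell in embryos and 0.0624% were called in cerebella.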

How the data were processed

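Core spliceosome genes were chosen by symbol, with earlier results of these data known when the genes, lists and tests were chosen. For footprints, the deposited values are raw counts per gene, which the authors made by clipping with fastx_clipper, removing ribosomal RNA, snoRNA and tRNA reads with bowtie2 2.2.3, mapping to mm10 with hisat2 2.1.0 and counting on coding sequences with featureCounts. The RNA values deposited by the authors are estimated counts and TPM of each transcript from kallisto 0.42.4, with TPM scaled for length and library size. Estimated counts were rounded and summed per gene, and footprint and TE tests omitted 100 histone symbols.

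Comparisons were fitted one by one in R 4.3.3 with edgeR 4.0.16 (low-count filter, TMM factors, quasi-likelihood test). Adjustment was by Benjamini-Hochberg over all genes or transcripts tested, with a threshold of 0.05. TE and differences of effects were interaction terms. CPM values are counts scaled by TMM factors. The fitting functions were tested on simulated counts with known changes. Totals per library limit precision for genes with few footprints. The alternatives were DESeq2 1.42.0, RLE factors, no filter on low counts, a replicate block, leaving out each library, protein_coding transcripts only, controls summed over pools and mutants compared directly, and, added after seeing the data, corrections for coding GC and coding length (lowess, span 0.3) and mutant libraries in place of controls.

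Members named with full values are the targeted genes, Snrpg, Snrpb, Snrpn, members called in embryos or cerebella, and up to 5 rises and 5 falls per MEF comparison among called members whose groups do not overlap, and up to 8 NMD or retained-intron transcripts of at least 1 TPM in a group. The values of 1 member are not reported here by name.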

Additional observations from a re-analysis of the deposited data

Results flagged for a closer look

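Snrpg passed the test for a difference between the effects of Hbs1l loss on footprints in embryos and in cerebella. The difference of the log2 fold changes was -3.81 (embryo minus cerebellum, SE 0.59, adjusted p = 0.0111), from -3.56 in embryos and 0.24 in cerebella. The call was lost without wild-type embryo replicate 2 (adjusted p = 0.0681), and all 28-nt stretches of Snrpg are shared with other genes.

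Snrpe passed the test for a difference between the effects of Pelo and of Hbs1l loss on footprints in MEFs, and Snrpg is given beside it without a test. The difference (Pelo minus Hbs1l) was 0.72 for Snrpe (SE 0.16, adjusted p = 0.0206) and 2.37 for Snrpg (SE 0.62), whose value is a description only, since it had 4 to 10 footprints a library in the Hbs1l pool and entered the test through the high Pelo-/- libraries. The same-numbered controls of both pools are near repeats and were counted as separate libraries. The Snrpe call is uncertain, since it was lost in 4 of 12 fits when a library was left out and the correction for coding length left 0 calls.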

How the results depend on the processing

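Counts of called genes stayed within 1.5 times of those reported for 11 of 16 comparisons in DESeq2, 16 of 16 with RLE factors, 14 of 16 without the filter on low counts, 12 of 13 with either correction for coding GC or length, 6 of 6 with protein_coding transcripts only and 3 of 3 with controls summed over pools. The exceptions were as follows. In DESeq2 15 genes (6 higher, 9 lower) were called in RNA of the libraries labelled Upf2-/-, 2 in TE of Hbs1l-/- MEFs, 3 among the NMD and retained-intron transcripts of Pelo-/- MEFs and 13 of the labelled Upf2-/- libraries, and 4 in the Pelo minus Hbs1l difference. Without the filter 5 genes were called in embryos, all lower (beside 352 lower and 351 higher of all 16310 genes), and 1 transcript in Pelo-/- MEFs. The GC correction left 14 genes in RNA of Pelo-/- MEFs, the length correction left 0 in the Pelo minus Hbs1l difference, and comparing these mutants directly gave 10. RLE factors gave 5 higher and 6 lower in RNA of the labelled Upf2-/- libraries, against 5 and 4. The cause was not tested. Directions turned for Prpf39 (0.30) and Sf3b6 (0.25) in RNA and for Prpf39 (-0.33) and Sf3b6 (-0.065) in TE of Pelo-/- MEFs with the GC correction, and for U2af1 (-0.32) in RNA of the labelled Upf2-/- libraries with protein_coding transcripts only. Of 2388 checks on 169 single-gene results, 1953 kept the call, 430 lost it in the same direction and 5 turned. Few footprints on Snrpg, Lsm7 and U2af1l4 limit what could be seen for them.

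Leaving out single libraries gave 1 to 16 called genes in embryos, 0 to 1 in cerebella, 13 to 20, 17 to 23 and 19 to 27 in footprints of Hbs1l-/-, Pelo-/- and labelled Upf2-/- MEFs, 3 to 11, 12 to 23 and 3 to 11 in their RNA, 0 to 0, 21 to 29 and 4 to 12 in their TE, 0 to 0, 0 to 0 and 3 to 8 among their NMD and retained-intron transcripts, 0 to 8 in the embryo minus cerebellum difference and 0 to 2 in the Pelo minus Hbs1l difference. A lone sample left in an arm is assumed to vary like the other group.

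Same-numbered mutant and control libraries share a number in the labels, and no pairing is stated there. Their deviations correlated between -0.23 and 0.33, and in no comparison was every pair over 0.1. With so few libraries these correlations cannot tell whether the libraries were paired. With the replicate block the count was 6 in embryos (all lower, beside 324 lower and 240 higher of all 11416 genes). It was 14 in RNA of Pelo-/- MEFs (2 higher, 12 lower), 2 among transcripts of the labelled Upf2-/- libraries and 1 in the Pelo minus Hbs1l difference. In the other 12 of 16 comparisons the block left the count within 1.5 times.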
